A study of Homo sapiens with 8 samples.

Results

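Cytosolic ribosomal proteins are the protein building blocks of the ribosome, the large-subunit proteins carrying names that begin with RPL and the small-subunit proteins names that begin with RPS. Genes were taken by name alone from the translation efficiency (TE) table, as RPL or RPS followed by a number with an optional letter, the stalk genes RPLP0, RPLP1 and RPLP2, and RPSA, with the RPS6 kinase genes left out. This gave 75 of the 11244 genes in that table, of which 47 had large-subunit and 28 small-subunit names. The names ending in L or L1 mark 6 second copies of other ribosomal protein genes. Some further genes tied to the ribosome, among them FAU, RPL36AL and RACK1, fall outside these names.

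The libraries came from cells labelled HepG2, an established human liver cancer line, either with METTL5 intact (METTL5-WT) or carrying a CRISPR-Cas9 deletion in it (METTL5-KO). The METTL5 enzyme methylates an adenosine of 18S rRNA, the RNA of the small subunit. Per the labels, the guide RNAs were placed to cut out exons 2 to 3 of METTL5. The study instead places the deletion made by the guide pair of its HepG2 clones across exons 3 and 4. Per its methods, knockout lines were grown up from single cells, so that clone and genotype cannot be told apart. All plates, of both genotypes, were given cycloheximide, which stalls ribosomes on the message, at 100 µg/ml for 7 minutes before lysis. From each of 2 lysates per genotype, a portion served as input RNA and the remainder was treated with micrococcal nuclease to leave ribosome-protected fragments (RPF), giving 8 libraries in 4 groups of 2.

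Nearly all mRNAs for ribosomal proteins start with a 5′ terminal oligopyrimidine (TOP) tract, a cytosine at the cap followed by an unbroken run of pyrimidines. Through this tract the mTOR pathway and the cap-binding protein LARP1 adjust translation of these mRNAs together, so that ribosome production follows nutrient supply. Ribosomal proteins are made in matched amounts, and surplus subunits that find no partner are degraded.

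Such a tract was looked for in the genome sequence at annotated starts, and the starts used in these cells were not measured. For the genes on which the results turn, 30 bases are given here, from 10 before a RefSeq start to 20 from it. They are read in the direction of transcription (RefSeq sequence, GRCh38.p14). Capitals mark a run of at least 5 pyrimidines that begins with C no more than 5 bases from the start. Pyrimidines before that C are not marked. Where a gene had more than 1 such start, the one with the longest run was kept, here and in the shares below.
RPS6 (chr9:19380217-19380246, minus strand): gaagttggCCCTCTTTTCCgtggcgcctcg
RPL35A (chr3:197950180-197950209, plus strand): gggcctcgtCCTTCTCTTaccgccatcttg
RPLP2 (chr11:809957-809986, plus strand): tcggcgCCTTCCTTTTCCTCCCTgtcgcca
RPL28 (chr19:55385922-55385951, plus strand): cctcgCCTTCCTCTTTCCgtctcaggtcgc
RPL34 (chr4:108620566-108620595, plus strand): cttttttCTTCCTCTTCCggggacgttgtc
RPL18 (chr19:48619159-48619188, minus strand): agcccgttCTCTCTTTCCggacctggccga
RPS21 (chr20:62387093-62387122, plus strand): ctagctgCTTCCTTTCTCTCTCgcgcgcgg
RPL13 (chr16:89560672-89560701, plus strand): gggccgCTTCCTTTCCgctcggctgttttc
RPS27L (chr15:63157458-63157487, minus strand): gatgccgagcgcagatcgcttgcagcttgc
RPL10L (chr14:46651762-46651791, minus strand): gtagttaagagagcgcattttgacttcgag
Members that rose, such as RPS6, RPL35A and RPLP2, and members that fell, such as RPS21, RPL13 and RPL34, both held such a run, while the second copies RPS27L and RPL10L had none in these bases. A window was found for 60 of the 75 genes. Of these, 48 (80%) held such a run, with a median longest run of 10 bases, against 29.7% of the 9050 genes of the TE table with a window and 25.2% of all 27305 genes with one. The run was searched on the transcribed strand only. Among the second copies 1 of 5 held a run, and among the other members 47 of 55 did (85.5%). RPS15 and RPS26 had no such run beside the annotated start, which says only that these letters are not in that window.

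The libraries differed in depth. Input totals ranged from 10710226 to 15307257 counts, the highest being METTL5-KO replicate 2. Recovered RPF reads ranged from 3970779 to 4592443 for wild type and from 8626705 to 9255921 for the knockout, so that members with few footprints are least precise in METTL5-WT. Below, RPF reads are not corrected for this depth, while the deposited values are scaled per library. In the list of 6 hepatocyte markers (ALB, AFP, APOA1, APOB, TTR and HNF4A), no gene reached more than 9 counts in any input library and TTR was at 0 in each, and the 6 genes together had 3 to 12 counts a library. The defining markers of the labelled cell line were thus at or near 0 in both genotypes, and none of the 6 is in the TE table. The knocked-out gene followed the labels: METTL5 input reads were 490 and 542 in the wild-type libraries and 208 and 151 in the knockout libraries. Its footprints were 158 and 226 in the wild-type libraries and 41 and 21 in the knockout libraries.

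Ribosomal protein genes have many processed pseudogenes, and the authors kept only reads with a single place in the genome. Of the 30-base words in the coding sequence of a member, a median of 27.3% had no exact copy in hg38 outside the gene's own locus. The range was 0 to 94.9%, against a median of 100% over 558 other genes of the table. Such words are called unique here, and words across exon junctions can be among them. In 25 of the 75 members at least 50% of the words were unique, and RPS26, RPL36A and RPL41 had no unique word. In METTL5-WT, 16 members had fewer than 100 RPF reads in each library. Levels of single members are therefore read together with their share of unique words, while a change between genotypes compares reads assigned to the same gene in both. For members with few or no unique words, where those reads came from was not tested, so their changes are also open to wrong assignment.

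The first measure was the share of counted footprints that fell on the members. Footprints with more than 1 place in the genome, and those of ribosomal protein genes outside the TE table, are not counted. Because members have few unique words, the family's full share of translation was not measured. Members took 5.68% and 5.20% in the wild-type libraries and 5.57% and 5.87% in the knockout libraries of the RPF reads. The group values were 5.44% ± 0.346 (SD, n = 2) for wild type and 5.72% ± 0.213 (SD, n = 2) in METTL5-KO, and the genotypes overlapped. Exact 95% binomial intervals of these shares, which cover counting error only, were at most from 5.66% to 5.71% in METTL5-WT replicate 1. In the input the share was 3.47% and 3.40% in the wild-type libraries and 3.39% and 4.01% in the knockout libraries, and METTL5-KO replicate 2 stood above the other libraries. An exact permutation test of 2 against 2 libraries cannot go below p = 0.333, so no p-value is given for the shares.

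Weighting each gene by its coding length, since short messages hold fewer ribosomes, gave a share of footprint density of 12.4% ± 0.754 (SD, n = 2) for wild type and 11.8% ± 0.291 (SD, n = 2) in METTL5-KO. Member coding sequences were short, with a median of 453 bases against 1424 over the whole table, while their median GC content of 51.6% was near that of all genes, 52.3%. By subunit, large-subunit genes took 4.02% ± 0.371 of RPF reads (SD, n = 2) for wild type and small-subunit genes 1.42% ± 0.0247 (SD, n = 2). In METTL5-KO these were 4.21% ± 0.0930 and 1.51% ± 0.120 (SD, n = 2). In the input the subunits lay closer together, at 1.84% ± 0.0237 and 1.59% ± 0.0254 in METTL5-WT (SD, n = 2). Per coding length, large-subunit genes took 9.61% ± 0.823 and small-subunit genes 2.76% ± 0.0694 of METTL5-WT footprint density (SD, n = 2). Per transcript length the input order was the reverse, 3.96% ± 0.0832 large and 5.01% ± 0.0950 small in METTL5-WT (SD, n = 2). In METTL5-KO input these were 4.27% ± 0.264 and 4.81% ± 0.362 (SD, n = 2).

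**Figure D1:**
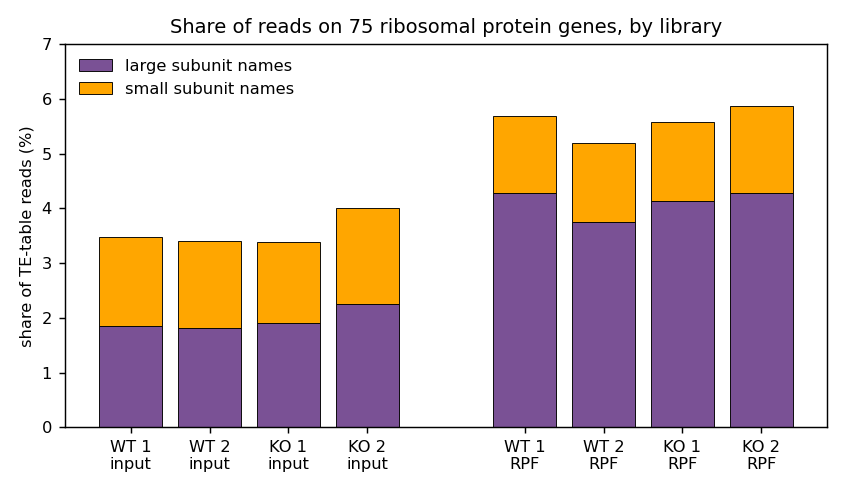
Share of all TE-table reads (%, vertical axis) on the 75 ribosomal protein genes in each of the 4 input and 4 RPF libraries, stacked by large-subunit (purple) and small-subunit (orange) names. Only reads with a single place in the genome are counted. RPF bars lie between 5.20% and 5.87% with overlapping genotypes, input bars between 3.39% and 4.01%, and the large-subunit part is the bigger one in every library. These are shares of reads, not weighted by length, and per length the small-subunit part of the input is the bigger one.

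A single gene set much of the large-subunit share. RPL37, a zinc-binding large-subunit protein (chr5:40825262-40835222, hg38), took 1.74% and 1.44% in the wild-type libraries and 1.55% and 1.56% in the knockout libraries of all RPF reads. It had more RPF reads than any other gene in each of the 4 RPF libraries, and held 26.6% to 30.7% of all member footprints. Its input reads ranked between 14 and 29. Without RPL37 the members' share of RPF reads was 3.85% ± 0.131 (SD, n = 2) for wild type and 4.16% ± 0.209 (SD, n = 2) in METTL5-KO.

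Baseline TE in METTL5-WT was taken as the log2 ratio of footprints per kilobase of coding sequence to input reads per kilobase of transcript, each as a share of its library. The member median was -1.34, below the median of -0.59 over 11224 genes, and stood at percentile 23.8 of all genes. The lysate medians were -1.34 and -1.34. Large-subunit genes had a median of -1.13 and small-subunit genes -1.61.

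That order depended on which length and which members were used. With no length in the ratio the member median was -0.78 against -0.37 for all genes. With the union of annotated exons for the input, a choice added after the data were seen, it was -0.50 against -0.75, and the members were then above the whole table. The 25 members with at least 50% unique words had a median of -0.03 and the other 50 a median of -1.93. Across the 75 members, TE was higher where the share of unique words was higher (Spearman rho 0.59, Pearson r 0.52, as a description, the points sharing libraries and mapping). The part of mapping in these levels was not tested.

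**Figure D2:**
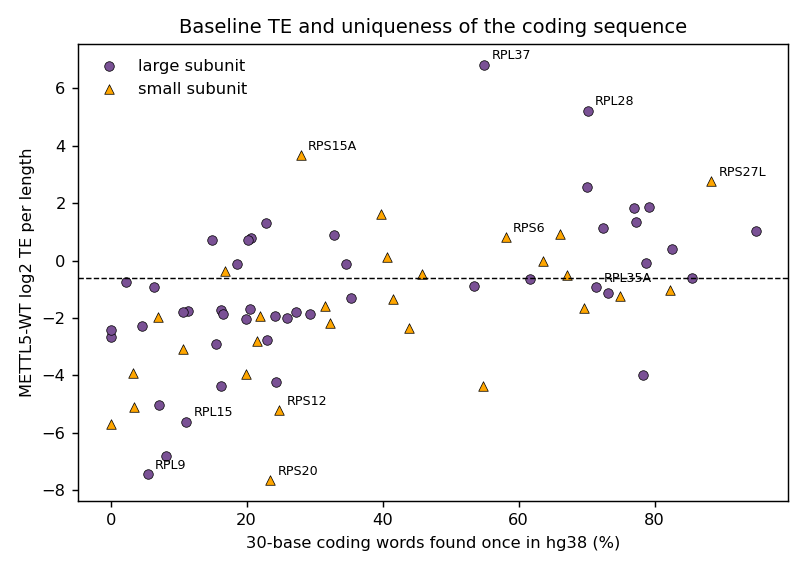
METTL5-WT log2 TE per length (vertical axis, mean of 2 lysates) against the percent of unique 30-base coding words (horizontal axis) for 47 large-subunit (circles) and 28 small-subunit (triangles) genes, with the median of all genes, -0.59, as a dashed line. Unique words are those with no exact copy in hg38 outside the gene's own locus, which the axis names as found once. Members with under 50% unique words lie mostly below the line, and RPL37 and RPL28 lie highest.

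Among members with a mean of at least 10, the highest baseline TE was that of RPL37, at 7.02 and 6.62 in the 2 METTL5-WT lysates. RPL28 followed at 5.36 and 5.08, RPS15A at 3.70 and 3.62, and RPS27L, a copy of RPS27 known as a p53 target, at 2.51 and 3.00. The 50 members with under 50% unique words reached at most 3.66 as a mean of the lysates. RPL37 and RPL28 were thus not among them, while RPS15A was. All 4 have long annotated transcripts beside short coding sequences. RPL37 has 291 coding bases in a canonical transcript of 7573, RPL28 has 411 in 4209, RPS15A 390 in 2203 and RPS27L 252 in 6110. With no length in the ratio, RPL37 stood at 3.47, RPL28 at 3.22 and RPS15A at 2.52, while RPS27L was at -0.49, near the median of all genes.

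The lowest was RPS20, a protein of the small-subunit head, at -7.62 and -7.67. RPL9 had -6.62 and -8.27, RPL15 -5.64 and -5.57, and RPS12 -5.25 and -5.18. These genes had plenty of input but few footprints. RPS20 had 5263 and 5381 input reads but 18 and 21 RPF reads in METTL5-WT. Unique words made up 23.5% of the RPS20 coding sequence, 5.48% of RPL9, 11.1% of RPL15 and 24.8% of RPS12.

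Loss of METTL5 was then examined at the level of mRNA. In the input, 12 members rose and 3 fell of 74 tested with edgeR (quasi-likelihood test, Benjamini-Hochberg), RPL10L having too few counts. Over all 14054 genes, 11.8% rose and 10.6% fell, so the members' 16.2% and 4.05% lay on the side of a rise. The median member change was 0.14 on the log2 scale (0.15 for large-subunit and 0.14 for small-subunit genes) against -0.0043 over all genes, and it was -0.01 without METTL5-KO replicate 2, the library with the highest member share. Without that library 10 members rose and 7 fell, without METTL5-KO replicate 1 there were 44 rises and 5 falls, and with each METTL5-WT library left out in turn edgeR called 0 rises and 1 fall (RPS21) both times, with 7 and 3 rises at an unadjusted p under 0.05. The share over all genes is not given here for the fits with a library left out, so those counts are not read as particular to the members. Labels do not say that replicates were separate cultures, so p-values measure the spread between these samples, and in bulk libraries less RNA per cell and fewer such cells cannot be told apart.

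RPLP2, an acidic protein of the stalk that recruits elongation factors, had the largest rise, with deposited values, which are reads scaled per library, of 2072 and 2008 in the wild-type libraries and 2993 and 2816 in the knockout libraries. Both knockout values lay above both wild-type values, and the log2 change was 0.50 (SE 0.11, edgeR adjusted p = 0.00240). RPLP0, the stalk protein that anchors it, rose by 0.41 (SE 0.13, edgeR adjusted p = 0.0203), whereas RPLP1 had a log2 change of 0.22 (SE 0.11, edgeR adjusted p = 0.171), past no threshold. RPL41, the smallest ribosomal protein, had values of 499 and 411 in the wild-type libraries and 591 and 698 in the knockout libraries and rose by 0.49 (SE 0.13, edgeR adjusted p = 0.00907). RPL18 rose by 0.46 (SE 0.12) and RPL27A by 0.45 (SE 0.12), with edgeR adjusted p-values of 0.00981 and 0.00893. Without METTL5-KO replicate 2 the changes of RPLP0, RPL18 and RPL27A were 0.22, 0.26 and 0.29, still called.

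RPS21, a small-subunit protein that sits beside RPSA, fell most, from values of 7943 and 7126 in the wild-type libraries and 4214 and 4916 in the knockout libraries. The genotypes did not overlap, and the log2 change was -0.74 (SE 0.12, edgeR adjusted p = 8.31e-05), called also when any 1 input library was left out. RPL13 had 2887 and 2628 in the wild-type libraries and 1883 and 1996 in the knockout libraries, a log2 change of -0.52 (SE 0.11, edgeR adjusted p = 0.00178). RPS19, the gene most often mutated in Diamond-Blackfan anemia, had 13295 and 14367 in the wild-type libraries and 9547 and 11583 in the knockout libraries, a log2 change of -0.40 (SE 0.12, edgeR adjusted p = 0.0198). Without METTL5-KO replicate 1 that of RPS19 was -0.26. RPL36A, also among the lowest, had 51 to 64 reads in each library and a log2 change of -0.41 (SE 0.31, edgeR adjusted p = 0.367).

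Among the 67 members with at least 10 RPF reads in each library and a test in both, footprint changes ran from -0.86 (RPL13) to 1.16 (RPS20) on the log2 scale and mRNA changes from -0.74 (RPS21) to 0.50 (RPLP2). Of 75 members 21 rose and 5 fell with limma on log2(value + 1), and 20 rose and 4 fell by limma and edgeR both. Over all 11240 genes limma called 16.2% higher and 13.1% lower, and both tools called 14.1% higher and 12.5% lower, against 28% and 6.67% of members by limma. The median member change was 0.11 (0.12 large, 0.07 small) against 0.02 over all genes, but it was 0.00 after quantile normalization, with 13 rises and 9 falls, and -0.13 once the trend with coding length was removed, with 8 rises and 12 falls. With the trend on GC content removed, 19 rose and 9 fell. The shares over all genes after these corrections are not given here. The sign of the family's footprint change thus turned with the correction for length, and member coding sequences ran from 75 to 1281 bases. How many of all called genes stay called with a library left out is not given here. The counts that follow are therefore not read as particular to the members. With any 1 library left out, 8 of the 21 rises were still called (RPS6, RPLP2, RPL27, RPL27A, RPL35A, RPS13, RPS15 and RPS20) and 2 of the 5 falls (RPS21 and RPS26, the latter with 1 to 4 reads a library).

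**Figure D3:**
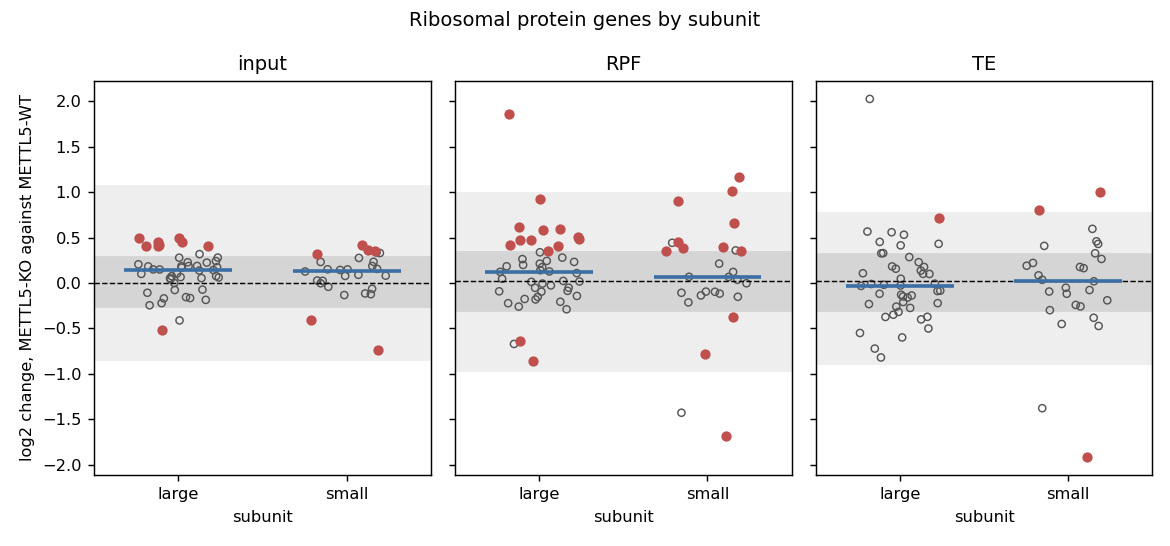
Log2 change in METTL5-KO against METTL5-WT (vertical axis) of each large-subunit and small-subunit gene in input (edgeR), RPF and TE (limma); filled red points passed an adjusted p of 0.05, blue bars are subunit medians, and the grey bands hold the middle 50% and 90% of all genes around their median (dashed). Input points lie mostly inside the middle band, and the outermost RPF points are RPS26 at -1.68, which rests on 1 to 4 reads a library, and RPL10L at 1.86, which has no input point.

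RPS6, the small-subunit protein phosphorylated by the S6 kinases downstream of mTOR (chr9:19375715-19380236, minus strand), had RPF values of 21450.1 and 25849 in the wild-type libraries and 36819 and 52678 in the knockout libraries. All knockout values were above all wild-type values, with a log2 change of 0.90 (SE 0.15, limma adjusted p = 2.24e-04), or 0.40 after quantile normalization (limma adjusted p = 0.0557), while its input values were 7721 and 6958 in the wild-type libraries and 7588 and 8079 in the knockout libraries, a log2 change of 0.08 (SE 0.12, edgeR adjusted p = 0.670). RPLP2 had RPF values of 20115 and 16748 in the wild-type libraries and 34301 and 35300.5 in the knockout libraries, a log2 change of 0.92 (SE 0.11, limma adjusted p = 7.89e-06), or 0.59 after quantile normalization. It rose at both levels, and so did RPL27A, RPL35, RPS12, RPS13 and RPS15. RPS15, a protein near the decoding site, had RPF reads of 60 and 80 in the wild-type libraries and 243 and 286 in the knockout libraries and rose by 1.01 (SE 0.15, limma adjusted p = 9.64e-05). RPS20 had RPF reads of 18 and 21 in the wild-type libraries and 60 and 115 in the knockout libraries, few in every library, and rose by 1.16 (SE 0.19, limma adjusted p = 2.38e-04), or by 0.76 without METTL5-KO replicate 2.

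Falls in footprints were fewer. RPS21 had RPF values of 8046 and 8985 in the wild-type libraries and 5031 and 4896 in the knockout libraries, a log2 change of -0.78 (SE 0.11, limma adjusted p = 5.44e-05), close in size to its fall in mRNA. RPL13 had 618 and 949 in the wild-type libraries and 474 and 377 in the knockout libraries, a log2 change of -0.86 (SE 0.16, limma adjusted p = 7.05e-04) that was -0.55 without METTL5-WT replicate 2 and not called without METTL5-KO replicate 2 (limma adjusted p = 0.0516). Both fell without overlap between genotypes at both levels. RPL34 had 4300.0 and 3299 in the wild-type libraries and 1800.5 and 3252 in the knockout libraries, a log2 change of -0.64 (SE 0.19, limma adjusted p = 0.0156) that was -0.21 without METTL5-KO replicate 1 (limma adjusted p = 0.344) and -0.45 without METTL5-WT replicate 1 (limma adjusted p = 0.0884). RPS16 fell by 0.37 on the log2 scale (SE 0.10, limma adjusted p = 0.0108) but was not called without METTL5-WT replicate 1 or 2 or METTL5-KO replicate 1 (limma adjusted p = 0.0612, 0.106 and 0.0550). RPS26 had RPF reads of 3 and 4 in the wild-type libraries and 1 and 2 in the knockout libraries, too few for a fold.

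The remaining well-known members held both called and uncalled genes. RPL5 and RPL11, which carry 5S rRNA and can bind MDM2, had RPF log2 changes of -0.18 and 0.11 (limma adjusted p = 0.176 and 0.420). RPL4, with 0.12, RPSA, also known as a laminin receptor, with -0.10, RPS23, at the decoding centre, with -0.21, and RPS25, needed by some viral entry sites, with -0.12, did not pass the limma threshold either. RPS14, whose loss marks the 5q- syndrome, rose by 0.39 (limma adjusted p = 0.0222) and RPL38 by 0.36 (limma adjusted p = 0.0128). Each call was lost with any 1 of 3 of the 4 RPF libraries left out (both METTL5-WT libraries, and METTL5-KO replicate 2 for RPS14 or replicate 1 for RPL38), and with the length trend removed the changes were 0.19 and 0.03 (limma adjusted p = 0.253 and 0.836). RPS27A, made as a fusion with ubiquitin, had 44 and 50 RPF reads with METTL5 intact and 125 and 103 without it, a log2 change of 0.36 (limma adjusted p = 0.0828).

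The TE comparison asks whether footprints moved apart from mRNA, tested in limma as the genotype effect on RPF less that on input. Of 75 members 3 rose and 1 fell, 4.00% and 1.33%, against 2.70% and 2.08% of all genes. By limma and edgeR both, 3 rose and 0 fell (at an unadjusted p under 0.05, 7 fell by limma and 10 by edgeR), against 2.65% and 2.06% of all genes. The member median was -0.02 (-0.03 large, 0.03 small) against 0.02 over all genes, and 71 of the 75 did not pass the limma threshold. Input and RPF libraries of the same number came from the same lysate, and with that lysate as a block limma called 5 rises and 4 falls, adding RPL26 and RPL27 to the rises and RPL18, RPL34 and RPLP0 to the falls. Quantile normalization gave 2 rises and 4 falls, removal of the length trend 1 and 4, and removal of the GC trend 3 and 0. With the GC trend removed the rises were RPL35A, RPS15 and RPS19, and RPS6 and RPS20 were not called. The shares over all genes are not given here for the lysate block or these corrections.

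RPS6 had the most footprints of the genes with a TE rise, and its TE log2 change was 0.81 (SE 0.21, limma adjusted p = 0.0358, edgeR 0.00850, lysate block 0.00788). It was 0.60 without METTL5-WT replicate 1 and 0.59 without METTL5-KO replicate 2 (limma adjusted p = 0.214 and 0.223), and 0.26 after quantile normalization (adjusted p = 0.505). With the GC or length trend removed its adjusted p was 0.116 and 0.0546. RPL35A, a large-subunit protein also mutated in Diamond-Blackfan anemia, had input values of 5689 and 6182 in the wild-type libraries and 5015 and 5095 in the knockout libraries and RPF values of 2917 and 2629 in the wild-type libraries and 3925 and 3851 in the knockout libraries. Its mRNA lay lower and its footprints higher in the knockout without overlap, and TE rose by 0.72 (SE 0.14, limma adjusted p = 0.00952, edgeR 0.00464, lysate block 0.00390), though leaving out METTL5-WT replicate 2 or either knockout lysate took its adjusted p above 0.05. Its RPF rise of 0.49 was 0.23 with the length trend removed (limma adjusted p = 0.0852). RPS20 rose by 1.00 (SE 0.27, limma adjusted p = 0.0423, edgeR 0.0349, lysate block 0.00452) from 18 to 115 footprints a library, and was 0.70 without METTL5-KO replicate 2 (adjusted p = 0.206). Its TE call was also lost without METTL5-WT replicate 1 or replicate 2 (adjusted p = 0.0571 and 0.0800), by DESeq2 (0.0961) and with the GC or length trend removed (0.166 and 0.0792).

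**Figure D4:**
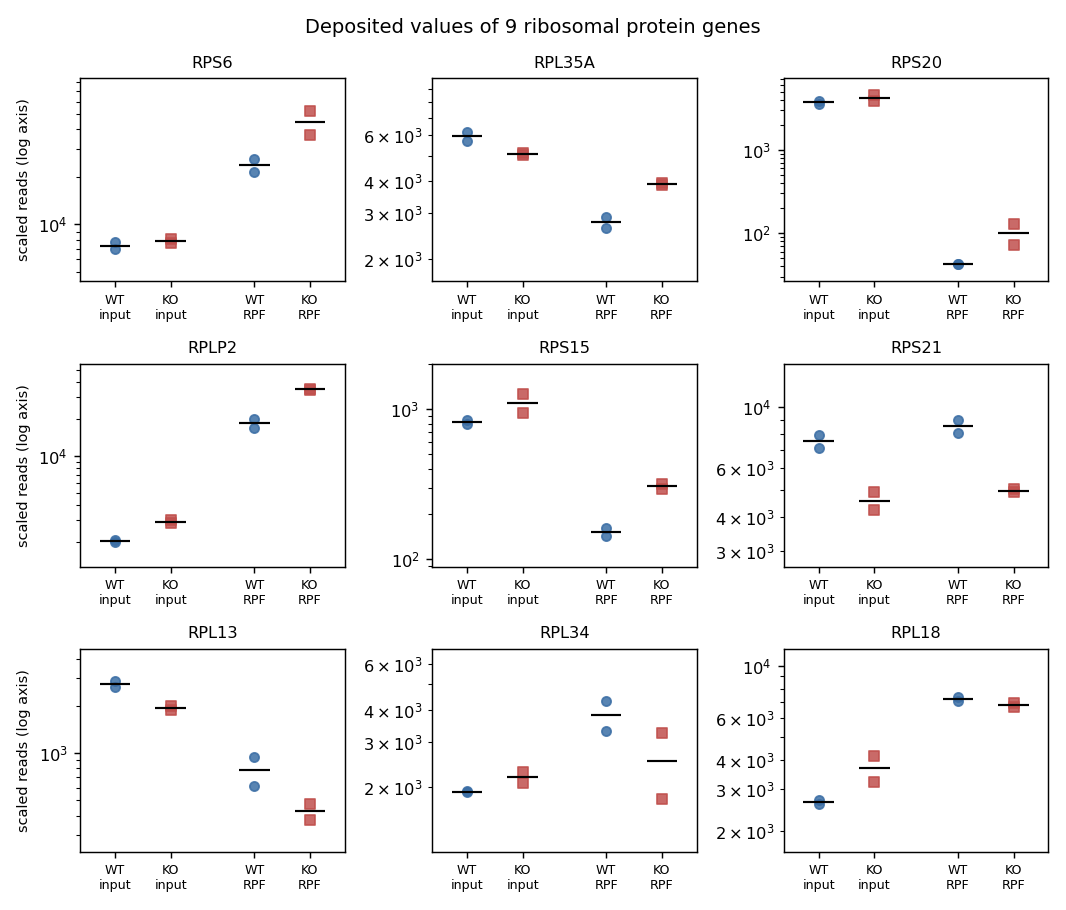
Deposited values (reads scaled per library, log axis) of 9 members in METTL5-WT (circles) and METTL5-KO (squares) for input and RPF, 2 libraries per group, with bars at the group means. RPS6, RPL35A and RPS20 are higher in METTL5-KO RPF, RPS21 and RPL13 are lower at both levels, and RPL18 is higher in METTL5-KO input while its RPF values lie close together.

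The lower end of the TE changes held RPL34 (-0.82, SE 0.26), RPL26L1 (-0.72, SE 0.38), RPL41 (-0.60, SE 0.46) and RPL18 (-0.55, SE 0.16). None was called by limma (adjusted p = 0.0799, 0.271, 0.464 and 0.0552), while edgeR on the recovered reads called RPL34 (adjusted p = 0.0277) and RPL18 (adjusted p = 0.0246). RPL18 had higher mRNA with level footprints. RPL41 had 8 to 27 RPF reads in each library, and its TE change was 0.25 without METTL5-WT replicate 2. The TE fall that limma called without the lysate block, RPS26, rested on 1 to 4 RPF reads in each library (edgeR adjusted p = 0.169).

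The second copies were read as separate genes. RPL10L, an intronless copy of RPL10 known from testis, had RPF reads of 20 and 14 in the wild-type libraries and 107 and 127 in the knockout libraries beside input reads of 8 and 11 in the wild-type libraries and 9 and 12 in the knockout libraries. Its footprints rose by 1.86 (SE 0.44, limma adjusted p = 0.00414, edgeR 3.17e-04), the largest RPF rise among the members, though not called without METTL5-KO replicate 1 or replicate 2 (limma adjusted p = 0.0555 and 0.0701), and its TE log2 change of 2.02 (SE 0.62) had a limma adjusted p of 0.0680. RPL10 itself had RPF values of 169 and 154 in the wild-type libraries and 199 and 209.6 in the knockout libraries, a log2 change of 0.34 (limma adjusted p = 0.0831). Of the RPL10L words 94.9% were unique but of the RPL10 words 4.57%, so the genes were read with unequal completeness. Uniqueness was scored on exact words, while the study's RPF mapping allowed mismatches. The assignment of reads between near copies was not tested.

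RPL22L1 had an RPF log2 change of 0.02 (limma adjusted p = 0.932) and RPL22, with 2 to 14 RPF reads a library, -0.18. RPL26L1 had -0.67 from 15 to 26 RPF reads a library (limma adjusted p = 0.0701), while RPL26 rose by 0.47 (limma adjusted p = 0.0118). RPL39L had 0.23, RPL7L1 -0.05 and RPS27L 0.07, with limma adjusted p-values of 0.710, 0.812 and 0.746. In the input RPS27L rose by 0.35 (edgeR adjusted p = 0.0436, DESeq2 0.0898), and the other copies tested did not pass the threshold.

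Other mRNAs known to carry a TOP tract, mostly of translation factors, were taken as a list of 30, of which 28 were tested. In the input 3 rose (EEF2, EIF3F and EIF3K) and 1 fell (HNRNPA1), 10.7% and 3.57% against 11.8% and 10.6% of all genes, with a median of 0.09, and none was called by edgeR with either METTL5-WT library left out (2 and 0 rises at an unadjusted p under 0.05). In RPF 9 rose by limma and edgeR both, 32.1% against 14.1% of all genes, and 0 fell by either against 12.5%, also at an unadjusted p under 0.05, with a median of 0.23 against 0.02 over all genes. They included FAU, made as a ubiquitin-like fusion with a ribosomal protein, the initiation factor subunits EIF3E, EIF3F, EIF3H, EIF3K and EIF2S3, and BTF3 and NACA, the nascent chain associated complex. After quantile normalization 4 rose and 1 fell, with a median of 0.03, and 6 rose with either METTL5-WT library left out. EIF3F rose most, by 0.81 (SE 0.12, limma adjusted p = 8.03e-05). In TE 0 of 28 passed the adjusted threshold of limma or edgeR, against 2.65% of all genes called higher and 2.06% lower by both. At an unadjusted p under 0.05 there were 5 rises by limma and 4 by edgeR with 0 falls. DESeq2, and limma with the lysate block, called 1 TE rise, EIF2S3. For DESeq2, the lysate block, quantile normalization and the fits with a library left out, shares over all genes are not given here. Counts under those settings are therefore not read as particular to this list.

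Of 20 regulators of these mRNAs 2 rose and 2 fell in RPF by limma and edgeR both, 10% each way against 14.1% and 12.5% of all genes. RHEB, the activator of mTOR, had RPF reads of 68 and 64 in the wild-type libraries and 282 and 208 in the knockout libraries and rose by 0.96 (SE 0.18, limma adjusted p = 8.18e-04). CDKN1A also rose, though not without METTL5-WT replicate 2 or METTL5-KO replicate 1 or with the length trend removed, while LARP1 fell by 0.31 on the log2 scale (limma adjusted p = 0.0255) and RPTOR, the mTOR complex subunit, by 0.34 (limma adjusted p = 0.0468). Neither fall was called with a METTL5-WT library or METTL5-KO replicate 1 left out or with the length trend removed. In the input EIF4EBP2, RPS6KB2 and AKT1S1 rose, 15% against 11.8% of all genes, and 0 of 20 fell against 10.6%. At an unadjusted p under 0.05 there were 5 rises and 0 falls by edgeR, and DESeq2 called 2 rises (4 unadjusted). With either METTL5-WT library left out edgeR called 0 of the 20 in the input, with 1 and 3 rises at an unadjusted p under 0.05. In TE 0 of 20 passed the limma threshold, against 2.70% of all genes higher and 2.08% lower. At an unadjusted p under 0.05 limma had 1 rise and 3 falls. By edgeR 1 fall was called, RPS6KB2 (adjusted p = 0.0361), which encodes an S6 kinase. DESeq2 called RPS6KB2 and LARP1 lower, and limma with the lysate block called RPS6KB2 lower and RHEB higher. For edgeR alone in TE, DESeq2, the lysate block and the fits with a library left out, shares over all genes are not given here. Counts under those settings are therefore not read as particular to the regulators.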

How the data were processed

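Groups and replicate numbers came from the sample titles. For input, the authors trimmed reads (BBDuk), aligned them to hg38 (STAR), kept uniquely mapped reads and deposited counts per gene (featureCounts, by strand over exons). The authors' notes name featureCounts 1.6.0. For RPF, the authors trimmed reads, removed rRNA and used the RiboToolkit server with a single mapping place allowed. The authors named the TE table RPKM, but the deposited values are a signal of whole reads times a constant per library: 100% of values came out whole (tolerance 0.01) and input values equalled the count table. Columns with the authors' own log2 fold change of TE, its p-value and adjusted p-value were also deposited, and none was used. Every gene of the TE table had at least 1 read in each library.

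The input test was edgeR 4.0.16 quasi-likelihood on counts, after filterByExpr and TMM scaling. The RPF and TE test was limma 3.58.1 in a model of 8 libraries, with a variance trend, over genes with a mean of at least 1, on log2(value + 1), which understates changes of low genes, and with edgeR on the recovered reads. The plan had assumed RPKM and kept its log-scale test. Calls are at a Benjamini-Hochberg adjusted p under 0.05, two-sided. The tests were run on simulated data first. Lengths came from GENCODE 44 canonical transcripts (99.8% of the table) and TOP windows from RefSeq. Pairing of input and RPF by lysate comes from the protocol: deviations of paired libraries correlated at -0.01 (METTL5-WT) and 0.06 (METTL5-KO). Named genes were, per comparison, the 4 highest and 4 lowest changes with a mean of at least 10, the 4 highest and lowest baseline TE, second copies and a list of well-known members. Members and lists were chosen with earlier results of these data known. DESeq2 1.42.0, R 4.3.3 and Python 3.11.15 were also used.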

Additional observations from a re-analysis of the deposited data

Results flagged for a closer look

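The count table held signal for ribosomal protein sequences outside the comparisons above. Rows of ribosomal protein pseudogenes summed to between 5639 and 7791 input counts a library, 1.35% to 1.65% of the members' counts, and the share was lower in both knockout libraries than in both wild-type libraries. Of 1598 such rows, 835 to 947 had reads. These were uniquely mapped reads, and the origin of single reads was not tested.

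Ribosomal protein genes of the count table outside the TE table, RPL7, RPL17, RPL21, RPL39, RPS3A, RPS10, RPS27, RPS28 and RPL3L, summed to between 3991 and 6531 input counts a library. Their footprints were not analysed here.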

How the results depend on the processing

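With 1 library left out, between 1 and 49 members were called in the input, and the member median lay between -0.0124 and 0.223. In RPF, between 16 and 25 were called and the median lay between 0.0624 and 0.163. In TE, between 0 and 4 were called, the 0 without METTL5-KO replicate 2, where 16 rose and 7 fell at an unadjusted limma p under 0.05, and the median lay between -0.171 and 0.136. The large minus small subunit difference lay between 0.0328 and 0.0843 in RPF and between -0.103 and -0.0162 in TE without 1 lysate, from 0.0547 and -0.0548 with all. The baseline WT TE was -1.34 without either METTL5-WT lysate. The shares of all genes called are not given here for these or the other alternatives in this section.

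With a replicate block on the lysate, which pairs input and RPF by protocol, 9 members were called in TE, and 11 with the GC trend also removed, for which the large minus small difference was -0.0106. Differences between same-numbered libraries of the 2 genotypes correlated at 0.0503 in input and 0.00368 in RPF. Libraries that share a lysate by protocol correlated at only -0.01 (METTL5-WT) and 0.06 (METTL5-KO). This check therefore cannot show whether same-numbered samples of the genotypes were paired. A block on the replicate number called 15 members in input, 26 in RPF and 6 in TE. Without the variance trend limma called 13 members in RPF and 0 in TE, where 7 rose and 2 fell at an unadjusted p under 0.05. On the input values of the TE table, an alternative chosen after seeing the data, limma called 9 members, and 8 with the length trend removed.

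The RPF median was 0 after quantile normalization, 0.0547 with the GC trend removed and -0.126 with the length trend removed. The large minus small difference in RPF was 0.0414 with a pseudocount of 5, 0.0274 with a mean of at least 10, 0.0687 after quantile normalization, -0.00222 with the GC trend removed and 0.0671 with the length trend removed. In TE it was -0.0440 with edgeR, -0.0447 with DESeq2, -0.0874 with a mean of at least 10, 0.0165 after quantile normalization, -0.0106 with the GC trend removed and -0.0797 with the length trend removed.

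The share of footprints per coding length was 12.4% in METTL5-WT and 11.8% in METTL5-KO, and 7.41% and 7.34% without RPL37, which was left out after seeing the data. As a share of all footprint reads it was 3.85% and 4.16% without RPL37. Baseline WT TE was -0.779 with no length, -0.499 with union exon length (also added after seeing the data), -0.0289 for members at least 50% unique and -1.52 in METTL5-KO lysates. The TE change of RPL41, -0.60 in all libraries, lay between -1.44 and 0.245 without 1 lysate. The cause of these moves was not tested. Over 55 results for single genes there were 812 values under alternatives, of which 634 kept direction and side of the threshold, 158 lost the call, 19 gained it and 1 reversed.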

Other observations

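Some of the ribosomal protein genes outside the TE table had input counts as follows. RPL7 had 1509 and 1256 counts with METTL5 intact, and 1202 and 1972 without it. RPS3A had 1006 and 805 counts with METTL5 intact, and 862 and 1507 without it. For RPS27, the gene that RPS27L resembles, the counts were 755 and 587 with METTL5 intact, and 844 and 1223 without it. For RPL7, RPS3A and RPS27, METTL5-KO replicate 2 held the highest count, and it was also the deepest input library. The same library was highest for RPL17, RPL21 and RPS28, but not for RPL39 or RPS10. RPL39 had 420 and 329 counts with METTL5 intact, and 621 and 312 without it. For RPS10 the counts were 80 and 60 with METTL5 intact, and 60 and 77 without it. RPL3L had 0 to 2 counts a library.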
